A study of Mus musculus with 6 samples.

Results

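Motile cilia beat because an axoneme of microtubule doublets around a central pair carries dynein arms, radial spokes and nexin links, all built from dedicated proteins. The genes described here are 38 mouse genes for structure and assembly of motile cilia other than the axonemal dyneins themselves. They cover the central pair, the docking sites of the outer dynein arms, the molecular ruler and nexin link, factors that assemble dynein arms in the cytoplasm, and proteins of the ciliary tip and membrane. All 38 symbols were among the 23420 gene symbols of the deposited count files. They were listed by name as central pair, docking, assembly and tip genes of motile cilia, with the difference between the 2 genotypes of this study already in view. Their differences between genotypes are therefore given as a description, without a test. The members Wdr63 and Wdr78 encode intermediate chains of an inner dynein arm, now also called Dnai3 and Dnai4.

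The libraries came from the palatal tissue of C57BL/6 embryos at E14.5 that forms the anterior hard palate. The control embryos were Shox2Cre/+;Nkx2.5F/F and the mutants Shox2Cre/-;Nkx2.5F/F, with 3 libraries in each group. Both groups thus carried a Shox2-Cre allele, which drives Cre recombinase where Shox2 is expressed, and 2 floxed Nkx2-5 alleles, so the controls were not wild type although their titles say so. The mutants had a null Shox2 allele in place of the remaining wild-type one. Shox2, a homeobox gene, is expressed in the anterior palate, and the comparison asks what its loss changes in this tissue. It is not stated whether each library holds 1 embryo or several, so any spread or p-value given refers to these libraries and may be technical.

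Total counts were 81950407 to 134813429 in the controls and 52668242 to 53331397 in the mutants. Every control library was thus deeper than every mutant library, and depth and genotype cannot be told apart. Shox2 checked the labels, with 68.2 to 88.2 CPM (counts normalised to library depth, here with edgeR's TMM factors) in the controls and 3.13 to 5.30 CPM in the mutants. All 8 listed mesenchymal genes of the palate were detected in all 6 libraries, at unlike levels. Pdgfra lay between 303 and 528 CPM and Meox2 between 12.8 and 21.3 CPM. Msx1 had 88.3 to 117 CPM in the controls and 20.5 to 27.2 CPM in the mutants. Control replicate 1 and mutant replicate 1 stood apart from their groups in the cilium genes, as described below, and 99.7% of the counts from 5 to 50 in mutant replicate 1 were even numbers, against 63.6% to 73.04% in the other 5 libraries.

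Multiciliated cells, which carry many motile cilia on one cell, are known from airway and nasal epithelium, the ependyma and the oviduct. Most other cells, palatal mesenchyme included, carry a single primary cilium that lacks a central pair and dynein arms but is built with the same intraflagellar transport proteins. The program of multiciliated cells is switched on by Mcidas and Gmnc and carried out by Foxj1 and the RFX factors. RFX factors bind a palindromic element, the X-box, in promoters of ciliary genes.

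All 38 genes were higher in every mutant library than in every control library, and all 38 passed the filter on low counts. Sntn, Cdhr3, Stoml3, Tctex1d4, Spata18 and Nhlrc4, at 0 to 6 counts in control replicate 1, passed it only through the mutants. A rise was thus partly fixed for these genes by the filter. Over all 16604 genes tested, 29.7% had every mutant above every control, and edgeR called 24.1% higher in the mutants and 21.7% lower. By the same fit 38 of the 38 were called higher, a count that the choice of the genes makes uninformative. Their median log2 fold change was 3.67, against a median of -0.0043 for all genes tested, and ran from 1.26 for Spef1 to 8.31 for Sntn. All 38 were called and over 2-fold higher, where 13.9% of all genes tested were. A log2 fold change above 3, that is over 8-fold, was fitted for 30 of them, against 3.9% of all genes tested, and one above 5 for 7. Summed over the 38 genes, the level was 120, 197 and 263 CPM in control replicates 1, 2 and 3. In mutant replicates 1, 2 and 3 it was 1563, 2125 and 1856 CPM. The mean sum was thus 9.55-fold higher in the mutants, at 1848 ± 281 against 193 ± 71.9 CPM (SD, n = 3 each). In such bulk libraries more ciliated cells and more RNA per ciliated cell cannot be told apart.

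**Figure D1:**
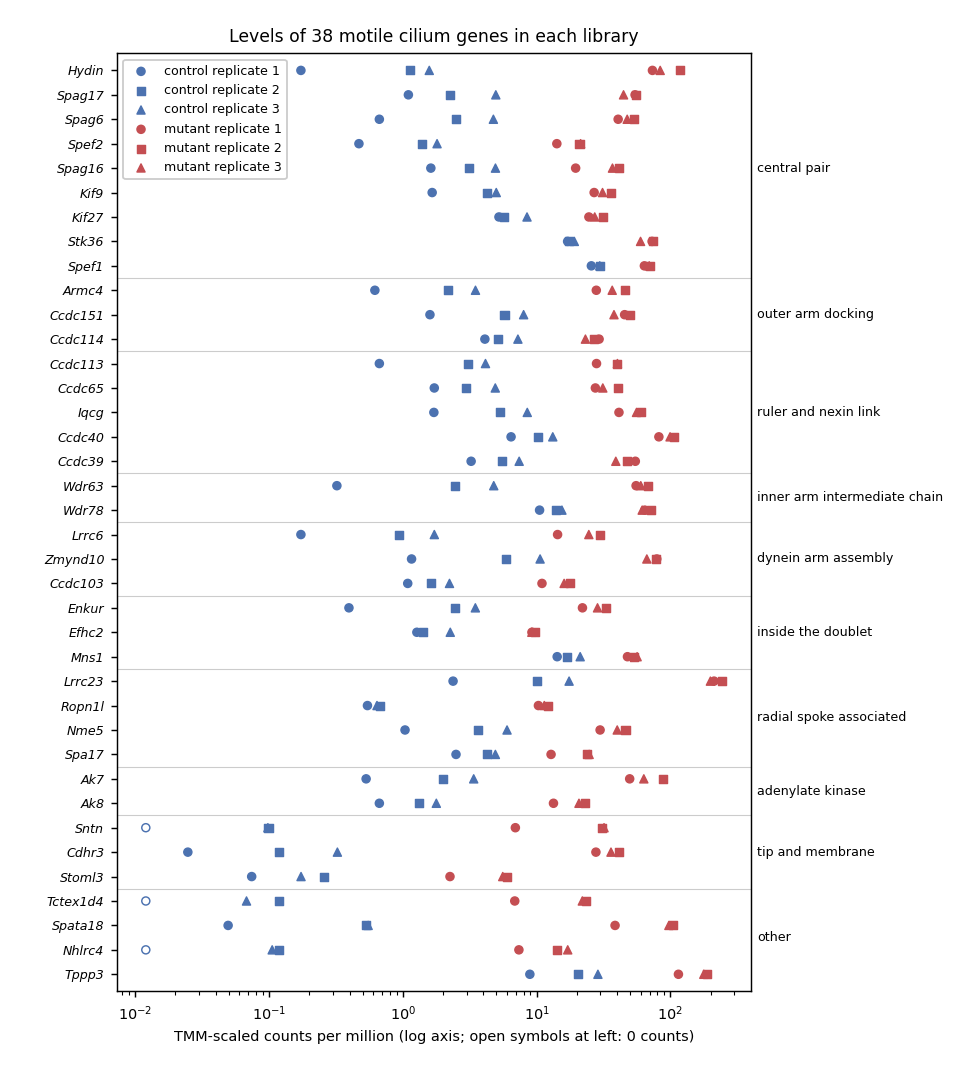
Level of each of the 38 genes in each library, in TMM-scaled CPM on a log axis, grouped by role. Blue symbols are the 3 controls, red symbols the 3 mutants, and open symbols mark 0 counts. In every row the 3 red symbols lie to the right of the 3 blue ones.

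The promoters of these genes were read for letters of the X-box, a property that played no part in choosing them. Windows from 250 bases before to 50 after the start site were taken from RefSeq on GRCm38.p6, and 33 of the 38 genes had one. The element was written as the letters GTNNCC and NGNAAC with 2 bases or 1 base between them, where N is any base, and searched on both strands. Either spacing was held by 13 of the 33 genes (39.4%), against 4.22% of all 27025 genes with a window and 4.89% of the 12020 of them that were tested in the fit. The single arm GTTGCC, which overlaps the full element where both occur, was held by 16 of 33 (48.5%) against 14.1% of all genes. The forkhead letters TGTTTAC, also on both strands, were held by Sntn, Stoml3 and Ak7, that is 3 of 33 (9.09%) against 4.05%. The matches are letters in a window and were not tested as binding sites. Matches lay wholly before a start site in 9 of the 13 genes, and 6 of these, from 4 roles, are given as examples, chosen after their sequences were seen. In Kif9 (for one of its start sites), Ccdc114 and Ccdc65 the match began 27, 15 and 13 bases before the start site. The stretches are written 5′ to 3′ along the gene's strand and end at the latest before the start site. Letters of a match that lies wholly before the start site are in capitals. Enkur held a further match that began 12 bases before the start site and ran past it, left in lower case. In Hydin and Ropn1l the pattern reads on the opposite strand.
Hydin, chr8:110266936-110266976, plus strand: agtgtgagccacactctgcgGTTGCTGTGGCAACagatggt
Lrrc23, chr6:124779859-124779911, minus strand: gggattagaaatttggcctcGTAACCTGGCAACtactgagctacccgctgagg
Ropn1l, chr15:31453690-31453729, minus strand: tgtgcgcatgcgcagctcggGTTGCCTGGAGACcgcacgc
Enkur, chr2:21205366-21205411, minus strand: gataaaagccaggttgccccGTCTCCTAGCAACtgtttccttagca
Spag16, chr1:69826847-69826900, plus strand: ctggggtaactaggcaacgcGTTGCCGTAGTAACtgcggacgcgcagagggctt
Ccdc151, chr9:22002635-22002688, minus strand: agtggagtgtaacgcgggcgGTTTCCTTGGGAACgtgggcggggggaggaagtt
The match in capitals began 21 bases before the start site in Hydin, 164 in Lrrc23, 20 in Ropn1l, 26 in Enkur, 103 in Spag16 and 34 in Ccdc151. The fold changes of genes with and without a match overlapped, with a median log2 fold change of 3.32 (1.59 to 6.504) for the 13 with one and 4.03 (1.26 to 8.31) for the 20 without. Among other cilium genes with a window, either spacing was held by 7 of 20 genes for axonemal dyneins, radial spokes and tektins (35.0%), by 11 of 25 further motile cilium genes (44.0%) and by 7 of 33 for intraflagellar transport and the BBSome (21.2%). It was held by 2 of 9 regulators of multiciliated cells (22.2%) and 3 of 8 olfactory neuron genes (37.5%), and by none of the 9 epithelial, 11 airway, 3 choroid plexus, 8 spermatid and 6 mesenchymal genes with a window.

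The central pair and its projections were represented by 9 genes, and their log2 fold changes spanned 1.26 to 6.504. Hydin, a giant protein of a central pair projection whose loss causes hydrocephalus, had 0.173, 1.14 and 1.58 CPM in control replicates 1, 2 and 3. In mutant replicates 1, 2 and 3 it had 73.4, 117 and 83.9 CPM. Its lowest mutant value was 46.6 times its highest control value (log2 fold change 6.504, SE 0.59). Spef1, a microtubule-bundling protein of the central pair, was the least changed of all 38 genes. It had 25.7, 30.0 and 29.7 CPM in the controls and 63.9, 70.6 and 69.5 CPM in the mutants (log2 fold change 1.26, SE 0.09). The groups did not overlap, and both were tight, with a coefficient of variation of 8.42% and 5.26%.

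Other parts of the central pair lay between these extremes. Spag6 had a log2 fold change of 4.14 (SE 0.60), Spag17 of 4.19 (SE 0.50) and Spag16 of 3.32 (SE 0.45). Spef2, which also acts in the sperm tail, had 3.93 (SE 0.47), and the kinesin Kif9 had 3.10 (SE 0.38). Kif27, a kinesin, and Stk36, the kinase it binds, which is needed to form the central pair, had the smaller values of 2.10 (SE 0.21) and 1.95 (SE 0.11).

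Docking of the outer dynein arms needs a complex that includes Ccdc114, Ccdc151 and Armc4. Ccdc114 had 4.11, 5.18 and 7.25 CPM in the controls and 29.3, 26.7 and 23.2 CPM in the mutants (log2 fold change 2.26, SE 0.22). Ccdc151 had 1.60, 5.76 and 7.998 CPM in the controls and 45.5, 50.2 and 37.9 CPM in the mutants (3.11, SE 0.51). Armc4 had 0.618, 2.16 and 3.49 CPM in the controls and 27.9, 45.8 and 36.7 CPM in the mutants (4.12, SE 0.56). In each of the 3 genes control replicate 1 was the lowest library. The mutant order differed, since mutant replicate 1 was the highest for Ccdc114 and the lowest for Armc4.

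The ruler proteins Ccdc39 and Ccdc40 set the repeat along the doublet, and Ccdc65 and Iqcg belong to the nexin link that regulates the dyneins. These genes and Ccdc113, a protein of the link between that complex and a radial spoke, had the narrowest range of any role with 3 or more genes, 3.12 to 3.76. Ccdc39 had 3.24, 5.48 and 7.41 CPM in the controls and 54.7, 47.4 and 39.1 CPM in the mutants (log2 fold change 3.12, SE 0.30). Ccdc113 had 0.668, 3.05 and 4.15 CPM in the controls and 28.0, 39.9 and 40.2 CPM in the mutants (3.76, SE 0.58). The other 3 genes lay between these values. Ccdc40 had 3.26 (SE 0.26), Iqcg 3.33 (SE 0.52) and Ccdc65 3.36 (SE 0.38).

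Of the inner arm chains, Wdr63 was among the genes with the widest spread between controls. It had 0.322, 2.47 and 4.78 CPM in the controls and 55.4, 67.6 and 60.1 CPM in the mutants (log2 fold change 4.56, SE 0.74). Wdr78 had 10.5, 13.99 and 15.5 CPM in the controls and 64.4, 71.7 and 61.6 CPM in the mutants (2.304, SE 0.15). The controls of Wdr78 lay closer together, with a coefficient of variation of 19.0% against 88.4% for Wdr63.

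Dynein arms are put together in the cytoplasm before they enter the cilium, and Zmynd10, Lrrc6 and Ccdc103 act in that step. Zmynd10 had 1.16, 5.93 and 10.6 CPM in the controls and 79.1, 77.7 and 66.7 CPM in the mutants (log2 fold change 3.64, SE 0.65). Lrrc6, a partner of Zmynd10, had 0.173, 0.931 and 1.72 CPM in the controls and 14.4, 29.9 and 24.6 CPM in the mutants (4.57, SE 0.70). Ccdc103 had 1.09, 1.63 and 2.23 CPM in the controls and 10.97, 17.8 and 16.1 CPM in the mutants (3.17, SE 0.31). The mutant libraries ranked differently for the 3 genes: mutant replicate 1 was the highest for Zmynd10 and the lowest for Lrrc6 and Ccdc103.

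Enkur, Mns1 and Efhc2 encode proteins found inside the doublet microtubules. Enkur had 0.396, 2.47 and 3.49 CPM in the controls and 22.0, 33.05 and 28.5 CPM in the mutants (log2 fold change 3.70, SE 0.65). Mns1 had 14.2, 16.9 and 21.2 CPM in the controls and 47.8, 53.3 and 56.4 CPM in the mutants (1.59, SE 0.15). Efhc2 had 1.27, 1.42 and 2.26 CPM in the controls and 9.23, 9.71 and 9.21 CPM in the mutants (2.50, SE 0.25). Its mutant libraries were the closest of all 38 genes, with a coefficient of variation of 3.01%.

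Of the genes tied to the radial spokes, Lrrc23, a spoke head protein, had 2.37, 10.1 and 17.5 CPM in the controls and 212, 243 and 199 CPM in the mutants (log2 fold change 4.43, SE 0.63). Spa17, which like Ropn1l has a domain related to the docking domain of protein kinase A subunits, had 2.50, 4.24 and 4.92 CPM in the controls. In the mutants it had 12.8, 23.8 and 24.7 CPM (2.39, SE 0.34). Ropn1l had 0.544 to 0.674 CPM in the controls and 10.3 to 12.2 CPM in the mutants (4.18, SE 0.19). It was the gene with a low control level whose controls varied least, with a coefficient of variation of 10.9%. Nme5, of the nucleoside diphosphate kinase family, had a log2 fold change of 3.43 (SE 0.56).

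Adenylate kinases balance the nucleotides that dyneins use. Ak7 had 0.532, 2.001 and 3.39 CPM in the controls and 49.6, 88.4 and 63.3 CPM in the mutants (log2 fold change 5.05, SE 0.59). Ak8 had 0.668, 1.32 and 1.78 CPM in the controls and 13.4, 23.0 and 20.7 CPM in the mutants (3.91, SE 0.39). Control replicate 1 and mutant replicate 1 were the lowest of their groups for both kinases.

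Genes of the ciliary tip and membrane had few counts in the controls. Sntn (sentan), which links the membrane to the microtubules at the tip of motile cilia, had 0, 10 and 13 counts in control replicates 1, 2 and 3. The count of 0 allows up to 3 counts, or 0.0371 CPM, in control replicate 1, for counting error only. This bound takes counts as independent, while 63.6% of the counts from 5 to 50 in that library were even. In the mutants Sntn had 6.94, 30.6 and 31.9 CPM (log2 fold change 8.31, SE 0.88). Cdhr3, a cadherin of ciliated airway cells, had 2, 12 and 43 counts in the controls, or 0.0247 to 0.324 CPM, and 27.8, 41.5 and 36.0 CPM in the mutants (7.66, SE 0.57). Stoml3, a stomatin-like membrane protein first known from olfactory cilia, had 0.0742, 0.258 and 0.174 CPM in the controls and 2.25, 5.97 and 5.58 CPM in the mutants (4.74, SE 0.57). The fitted values for Sntn and Cdhr3 rest on few control counts and depend on the prior count of the fit. Their lowest mutant values were 70.0 and 85.6 times their highest control values.

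The remaining 4 genes have less defined places. Tctex1d4, of the dynein light chain family, had 0, 12 and 9 counts in the controls, and 6.87, 23.6 and 22.0 CPM in the mutants (log2 fold change 8.02, SE 0.80). Spata18, known for a role in mitochondrial quality control, had 0.0495, 0.535 and 0.551 CPM in the controls and 38.6, 105.2 and 97.4 CPM in the mutants (7.64, SE 0.67). Nhlrc4, an NHL-repeat protein, had 0, 12 and 14 counts in the controls and 7.38 to 17.1 CPM in the mutants (7.30, SE 0.69). Tppp3, a tubulin-binding protein also made in other cells, had 8.91, 20.4 and 28.7 CPM in the controls and 115, 189 and 178 CPM in the mutants (3.05, SE 0.42). The groups did not overlap for any of the 4, and control replicate 1 was the lowest library for each.

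**Figure D2:**
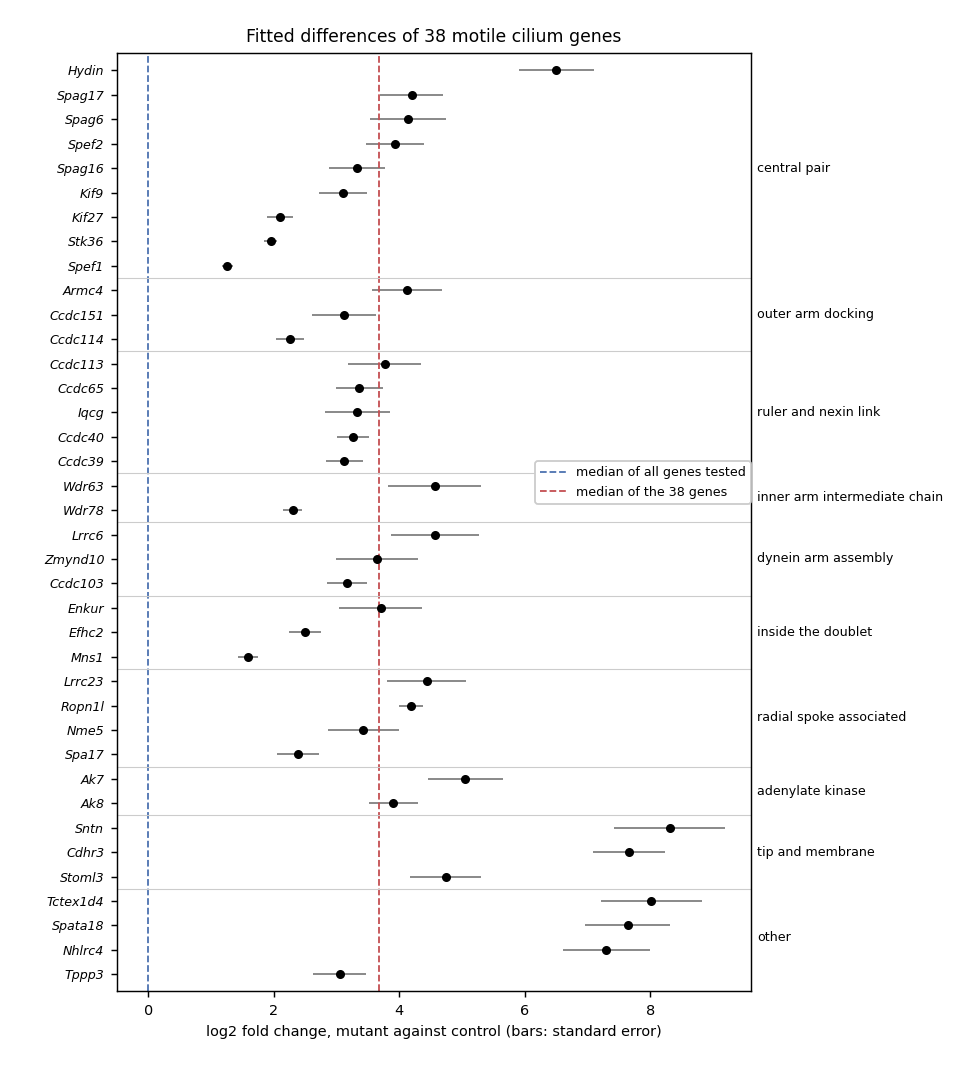
Fitted log2 fold change, mutant against control, of each of the 38 genes with its standard error (bars), grouped by role. The dashed lines are the median of the 38 genes (3.67) and of all genes tested (-0.0043), and the genes of the tip and of the group named other reach the largest values.

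Levels can be compared between genes only per length, so CPM was divided by the exon length of each gene in kb (GENCODE M21, GRCm38). On that scale Lrrc23 was the highest in the mutants, at 125.7 ± 12.96 CPM per kb (SD, n = 3), followed by Tppp3 at 86.8 ± 21.6. Their libraries did not overlap, with 115 to 140 CPM per kb for Lrrc23 and 62.1 to 102 for Tppp3. Spata18 (38.2 ± 17.3), Zmynd10 (35.0 ± 3.20) and Nme5 (33.5 ± 7.16) followed and did not differ beyond the spread of their libraries. Spef2 was the lowest at 1.90 ± 0.406 CPM per kb, next to Stoml3 at 2.14 ± 0.951, and these overlapped within their SD. In the controls the order was another one: Tppp3 (10.5 ± 5.39), Spef1 (10.3 ± 0.872) and Lrrc23 (5.76 ± 4.36) led, and Nhlrc4 was the lowest at 0.0323 ± 0.0281 CPM per kb. Across the 38 genes the fold change was larger where the control level per kb was lower (Spearman's rho -0.74), but the control level enters both values. With the longest transcript as the length, Lrrc23 and Tppp3 kept the top ranks, and Spata18 ranked 5 in place of 3.

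**Figure D3:**
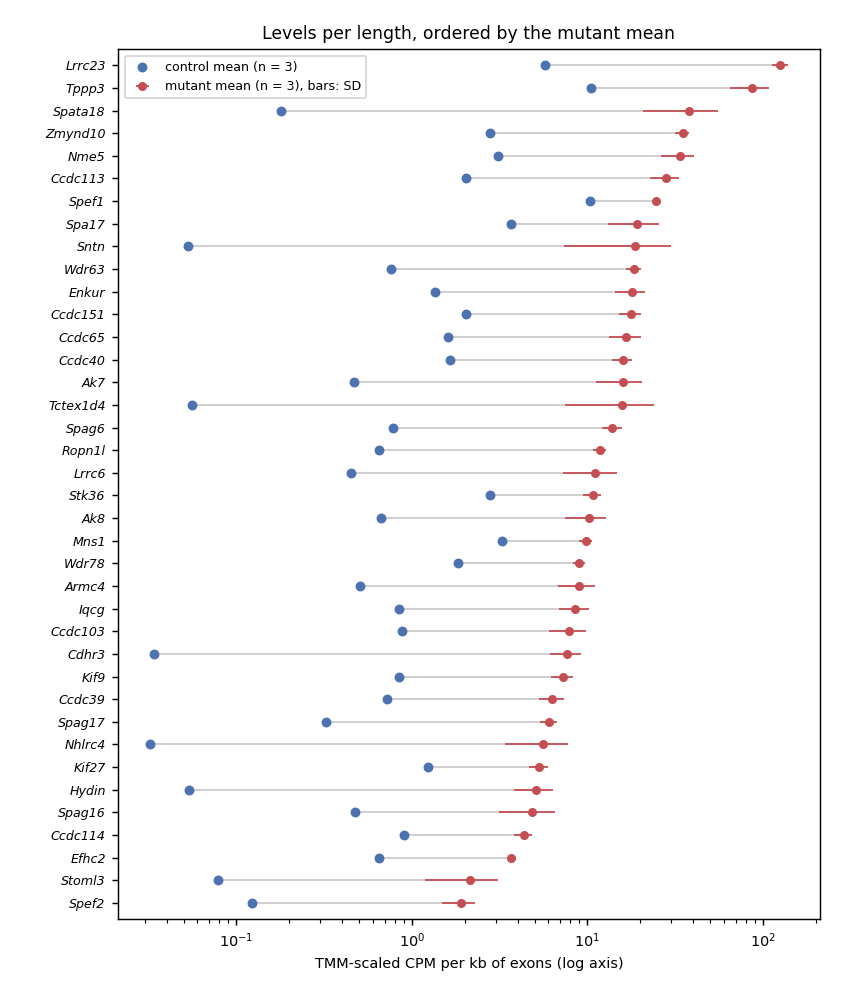
Mean level of each of the 38 genes per kb of exons on a log axis, in controls (blue) and mutants (red, bars are the SD over 3 libraries), ordered by the mutant mean. Lrrc23 and Tppp3 lie above the rest in the mutants, and the control means spread over a wider range than the mutant means.

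Control libraries followed one order in these genes. Control replicate 1 was the lowest control for all 38 genes, against 41.6% of all genes tested, and control replicate 3 was the highest for 32. The median ratio of control replicate 1 to the mean of replicates 2 and 3 was 0.300 over the 38 genes and 0.996 over all genes tested. The coefficient of variation was larger in the controls than in the mutants for 36 of the 38, with medians of 59.7% and 19.5%. Of 22 genes for axonemal dyneins, radial spokes and tektins, 21 were also lowest in control replicate 1. Foxj1, the forkhead factor of motile cilia, had 20.7, 64.7 and 105.1 CPM in control replicates 1, 2 and 3. Epithelial genes followed another order: summed over 17 of them, the controls had 1850, 1104 and 1831 CPM, with replicate 1 the highest. How the controls came to differ was not tested.

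Mutant replicate 1 was lower than the other mutants in some of the 38 genes and not in others. Its ratio to the mean of mutant replicates 2 and 3 ran from 0.222 for Sntn to 1.26 for Ccdc39, with a median of 0.724, against 0.981 over all genes tested. It was under 0.5 for 5 genes, Sntn (0.222), Tctex1d4 (0.302), Spata18 (0.381), Stoml3 (0.390) and Nhlrc4 (0.472), all of the tip and membrane group or of the group without a defined place. Cdhr3 (0.717) and Tppp3 (0.627) of the same groups were not under 0.5. Ratios under 0.5 also occurred outside the 38 genes, as for the motile cilium gene Fam183b (0.412) and the airway gene Sftpc (0.307). The ratio lay above 1 for Ccdc39, Ccdc114, Zmynd10, Spag17, Stk36 and Ccdc151. Mutant replicates 2 and 3 were closer to each other, with ratios from 0.830 to 1.40.

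Of the 11 regulators of multiciliated cells, 9 were highest in mutant replicate 1, where 3 of the 38 genes and 36.7% of all genes tested were. Mutant replicate 3 was the lowest mutant for 10 of the 11, and the difference in order from the 38 genes was not tested. Gmnc had a ratio of 1.94, Foxn4 of 1.75, Ccno of 1.61 and Mcidas (Mcin in the files) of 1.56. Foxj1 and E2f4 were near even at 1.04 and 1.03, and Rfx3 was lower, at 0.823. Mutant replicate 1 is also the library with nearly all low counts even, and the part of this in the order was not tested. Across the 38 genes its ratio had a Spearman's rho of 0.39 with transcript length and of -0.05 with GC content, as a description of 38 genes measured in the same libraries.

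**Figure D4:**
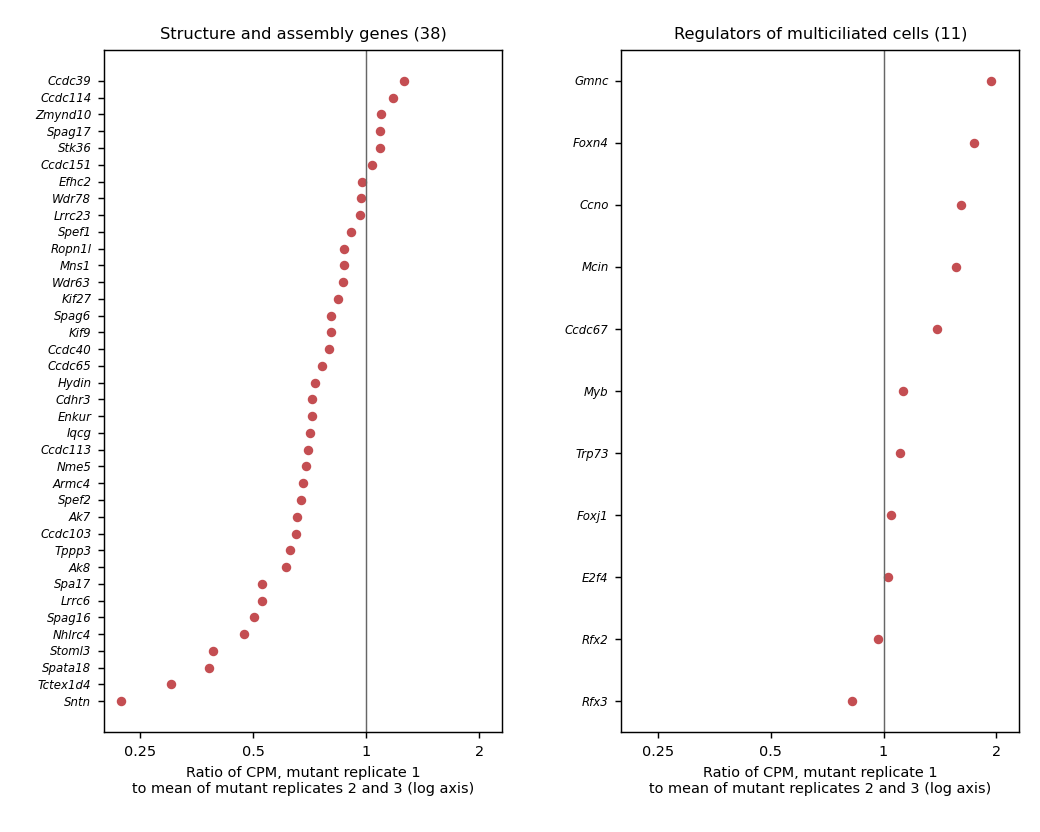
Ratio of the CPM in mutant replicate 1 to the mean CPM of mutant replicates 2 and 3 (log axis), for the 38 genes (left) and for 11 regulators of multiciliated cells (right). The ratios run from 0.222 (Sntn) to 1.26 (Ccdc39) on the left and from 0.823 (Rfx3) to 1.94 (Gmnc) on the right.

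Other genes of motile cilia were compared in the same fit. Of the genes for axonemal dyneins, radial spokes and tektins, 22 were in the files and all 22 were called higher by edgeR, with a median log2 fold change of 3.89. Dnah6 (Dnahc6 in the files) had 1.97 to 5.28 CPM in the controls and 99.7 to 133 CPM in the mutants (4.87, SE 0.35, edgeR adjusted p = 0.000234). Rsph9, a spoke head gene, rose by 2.72 (SE 0.18) and Dnah7a by 3.92 (SE 0.25). Of 30 further motile cilium genes tested, 29 rose and none fell, with a median of 3.50. Dnaaf3, a dynein assembly factor, rose by 3.10 (SE 0.23), Heatr2 by 1.33 (SE 0.07) and Spag1 by 1.77 (SE 0.16). The gene that was not called was Dnaaf2 (0.19, SE 0.10, edgeR adjusted p = 0.149), chosen here after its value was seen. These lists share the control libraries and the comparison with the 38 genes. Over all genes tested, 24.1% were called higher and 21.7% lower.

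Of the 11 regulators 10 rose, with a median log2 fold change of 2.13, below that of the 38 genes. Rfx2 had 14.8 ± 1.09 CPM in the controls and 43.0 ± 2.74 CPM in the mutants (1.54, SE 0.10, edgeR adjusted p = 0.000193). Rfx3 rose by 1.12 (SE 0.12) and Myb by 2.13 (SE 0.31). E2f4, also active in the cell cycle, was called lower at -0.24 (SE 0.07), and it was not called when libraries were scaled by total count only or without control replicate 2, mutant replicate 2 or mutant replicate 3. Foxj1 rose by 2.26 (SE 0.50, edgeR adjusted p = 0.00906). Genes of intraflagellar transport and the BBSome, which primary cilia use too, had a median log2 fold change of 0.47 and ran from -0.60 to 1.44. Of 37, 25 rose, 3 (Mkks, Ttc21b and Kifap3) fell and 9 were not called. Over all genes tested, 24.1% were called higher and 21.7% lower. Traf3ip1 rose by 1.44 (SE 0.10), Ift88 by 0.998 (SE 0.09) and Ift122 by 0.82 (SE 0.08). Whether the lists differ from the 38 genes was not tested.

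Genes of epithelium and of airway secretory and surfactant cells, which do not mark multiciliated cells themselves, were read next. All 17 epithelial genes rose, where 24.1% of all genes tested were called higher. Their summed level was 1104 to 1850 CPM in the controls and 5750 to 6486 CPM in the mutants. Krt8, a keratin of simple epithelium, rose by 2.02 (SE 0.12), Krt19 by 2.45 (SE 0.18) and Cldn3, a tight junction gene, by 2.43 (SE 0.18). The largest parts of the epithelial sum were other keratins, which rose as well. Krt5 had a mean of 348 CPM in the controls and 1720 CPM in the mutants. Krt15 had 243 and 1366 CPM, and Krt14 had 332 and 914 CPM. The 38 genes are not among these 17, and the ratio of their sum to the epithelial sum, as a percentage, was 6.47%, 17.9% and 14.4% in control replicates 1, 2 and 3. In mutant replicates 1, 2 and 3 it was 25.99%, 36.96% and 28.6%. Of 17 airway secretory and surfactant genes in the files, 11 passed the filter on low counts, and all 11 rose. Genes such as Sftpc and Nkx2-1, at 0 to 2 counts in each control, passed it only through the mutants. A rise was thus partly fixed for them by the filter. The 17 genes summed to 34.0 to 61.3 CPM in the controls and 362 to 541 CPM in the mutants. Cyp2f2, of secretory airway cells, rose by 3.77 (SE 0.37), Muc4 by 3.62 (SE 0.30) and Sftpc by 9.18 (SE 0.73, with 1 to 2 counts in each control). Most of the airway sum in the mutants was Cyp2f2, at 255 to 359 CPM. Scgb1a1, the defining secretory gene of the lower airway, had 0 counts in all 6 libraries. The part of these cell types in the levels of the 38 genes was not tested.

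Lists for olfactory neurons, choroid plexus, spermatids and palatal mesenchyme were read in the same way. Of 9 olfactory neuron genes tested, 2 were called higher and 1 lower, where 24.1% and 21.7% of all genes tested were. Omp, which marks mature olfactory neurons, had 0.226 to 0.396 CPM in the controls and 0.3997 to 0.555 CPM in the mutants and was not called. Cnga4, a channel subunit of olfactory cilia, had 0.0247 to 0.151 CPM in the controls and 1.16 to 3.07 CPM in the mutants (4.90, SE 0.71). It was called higher, and Ano2 and Emx2 were called higher (1.33, SE 0.33) and lower (-3.18, SE 0.81). Ano2 was not called without control replicate 2 (1.20) or mutant replicate 2 (1.13), and Emx2 was not called without mutant replicate 2 (-3.08). The summed olfactory level was 52.7 to 57.2 CPM in the controls and 58.7 to 61.3 CPM in the mutants. Most of that sum was Adcy3 (39.3 ± 1.90 CPM in the controls and 39.7 ± 1.95 CPM in the mutants) and Gnal (12.4 ± 1.11 and 12.7 ± 1.52 CPM), both also named after their values were seen. Ttr, the leading gene of the choroid plexus, was at 0 to 0.0991 CPM in every library, while Kcnj13 rose by 4.26 (SE 0.38), Clic6 by 1.35 (SE 0.25) and Otx2 by 1.85 (SE 0.55), so that 3 of 4 tested choroid plexus genes were called higher. The choroid plexus sum was 21.2 to 31.0 CPM in the controls and 51.5 to 80.7 CPM in the mutants, 2.77-fold higher by the means. Otx2 was not called without control replicate 3, mutant replicate 2 or mutant replicate 3, at log2 fold changes of 1.66, 1.57 and 1.93. Of 4 spermatid genes tested Ldhc rose (4.04, SE 0.61), Prm2 and Tnp1 were at 0 in all libraries, and the list summed to 2.74 to 3.45 CPM in the controls and 4.04 to 4.46 CPM in the mutants. Ldhc, Cnga4 and Kcnj13 passed the filter on low counts only through the mutants, and Emx2 only through the controls. Their directions were thus partly fixed by the filter. Of 8 genes of palatal mesenchyme, 3 fell and 2 rose: Msx1 fell by 2.07 on the log2 scale (SE 0.14), Pdgfra fell by 0.51 (SE 0.12) and Alx1 rose by 0.65 (SE 0.12). The other 2 were Twist1, which fell by 0.44 (SE 0.11), and Pax9, which rose by 0.50 (SE 0.12).

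**Figure D5:**
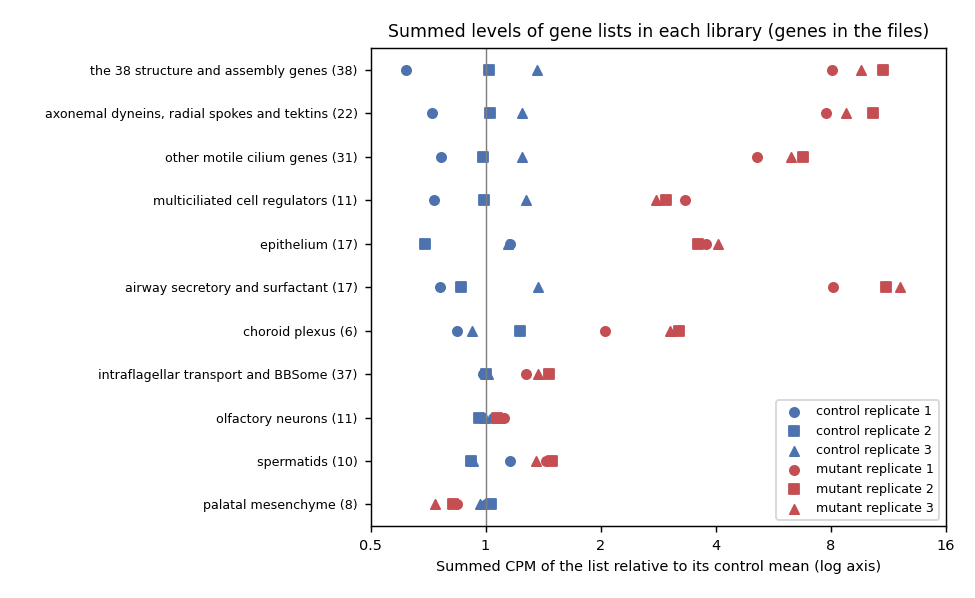
Summed CPM of each gene list in each library, divided by the mean of its 3 control libraries (log axis). The 38 genes, the dynein list and the airway list lie farthest to the right in the mutants, while the olfactory and mesenchymal lists stay near 1. Most of the airway sum in the mutants is Cyp2f2.

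Some genes share exons with a neighbour, and whether counting used strand is not known. Exons of 10 of the 38 genes overlap another gene of the files, and for 5 the overlap covers more than 10% of the exon bases. Mns1 shares 52.99% with Tex9, Iqcg 48.1% with Lrch3, Spa17 36.9% with Siae and Ccdc39 16.9% with Ttc14, all on the opposite strand. The partners changed far less than the cilium genes, with log2 fold changes of 0.29 for Tex9, 0.02 for Lrch3, 0.74 for Siae and 0.35 for Ttc14. Nhlrc4 shares 14.2% of its exon bases with Pigq on the same strand, and Pigq had a log2 fold change of 0.64. Reads in shared exons cannot be told apart, so the levels of these 5 genes, above all of Mns1 and Iqcg, are uncertain.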

How the data were processed

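The authors deposited read counts per gene symbol, as whole numbers, in 1 file per library. Per the submitters' processing notes, HISAT2 and StringTie were used with the builds mm9 and mm10, and no version is stated there. The counting program, annotation and strand option were not given in the sources used here. Low counts were mostly even, and the floor of 3 counts for a gene at 0 covers counting error only, with counts taken as independent.

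Counts were tested as deposited with edgeR 4.0.16 (R 4.3.3): filterByExpr by group, TMM scaling, the quasi-likelihood F test without a block, and Benjamini-Hochberg adjusted p under 0.05 over all genes tested. A standard error is the size of the log2 fold change over the square root of F. Alternatives included DESeq2 1.42.0 and limma-voom (limma 3.58.1). Replicate numbers were not used as pairs, except in the alternative with a replicate block. Same-numbered libraries deviated together with correlations of 0.02 to 0.08, against -0.09 to 0.05 for libraries of different number. Of 23420 symbols, 98.4% matched GENCODE M21 on GRCm38, which gave exon lengths and overlaps.

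The genes and lists were chosen with earlier results of these data known. Library values are given, per role, for the genes with the largest and the smallest log2 fold change (all genes of a role with 3 or fewer) and for the 3 highest per kb. Ropn1l and Nhlrc4 were added to these after their values were seen. Of each other list, the 3 called genes with the smallest p are named, with marker genes at 0 in all libraries. E2f4, Foxj1, Mcidas, Gmnc, Ccno, Foxn4, Dnaaf2, Omp, Ttr, Twist1, Pax9, Mkks, Ttc21b and Kifap3 were named in addition, after their values were seen.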

Additional observations from a re-analysis of the deposited data

How the results depend on the processing

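Each of the 38 genes kept its direction and its side of the threshold under all 15 alternatives, that is in 570 of 570 values. The genes were chosen with this difference in view, and all alternatives use the same libraries. This count therefore describes the processing only and adds no evidence for the difference. All 38 were called higher under the replicate block, which uses the replicate numbers of the titles, and without replicate 1 of both groups. Over all genes tested, 3720 were called higher with the replicate block and 4595 without replicate 1 of both groups. The fit without a block on all 6 libraries called 3999 higher. The median log2 fold change of the 38 genes was 3.99 with the replicate block and 3.30 without replicate 1 of both groups, and leaving out 1 library gave 3.18 (without control replicate 1) to 4.23 (without control replicate 3). The replicate block moved no count of list genes called by over 1.5 times. Leaving out 1 library, 0 to 1 regulators were called lower, 1 to 3 olfactory genes higher and 0 to 1 lower, and 1 to 2 spermatid genes higher. With library size only, 0 regulators were called lower. With at least 1 CPM in 3 libraries, which tests fewer genes, 7 airway genes and 0 spermatid genes were called higher and 0 olfactory genes lower. With counts halved and rounded up, 0 olfactory genes were called lower. Library size only moved the median of all genes tested to 0.06. The controls' low counts limit the precision of folds for Sntn, Cdhr3, Tctex1d4 and Nhlrc4.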
